A study of Mus musculus with 8 samples.

Results

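The genes described here were 10 metalloproteinases and inhibitors of metalloproteinases, measured in neutrophils from mouse lungs with and without pneumonia. They were the matrix metalloproteinases Mmp2, Mmp12, Mmp13, Mmp14 and Mmp19, the membrane-bound sheddase Adam17, the secreted proteinase Adamts1, and the tissue inhibitors Timp1, Timp2 and Timp3. They were chosen by symbol, with earlier results of these data known, and each was found through the RefSeq identifier of its row. All 10 had 1 row each, among 19836 gene symbols on the 24625 rows of the table.

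Wild type mice of 6 to 12 weeks by the labels were instilled intratracheally on the left side with Streptococcus pneumoniae (SP) or, as controls, with phosphate-buffered saline (PBS). The volume was 2.3 µl for each g of weight. The methods give a narrower age range within that of the labels, and colonies founded from female C57BL/6J mice. Lungs were taken 24 h later, and cells bearing Ly6G, a surface protein of mouse neutrophils, were pulled from the cell suspension with magnetic beads. RNA of 4 PBS and 4 SP samples was hybridised to 1 Affymetrix Mouse Gene 1.1 ST array each. Digestion of the lung and bead selection were common to both groups. Per the methods, purity was evaluated only in the pneumonia samples, on stained cytospins, and was high there. The few other cells seen mostly looked like alveolar macrophages, and rarely like eosinophils. The study describes the samples as coming from individual mice, and the p-values measure the spread between these samples. The small number of arrays is a limit on precision.

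Matrix metalloproteinases are zinc-dependent enzymes made as inactive precursors, and most are activated when another proteinase removes their propeptide. TIMP proteins block them by occupying the active site, so the balance of enzyme and inhibitor sets how much matrix is cut. In neutrophils the best known members, MMP8 and MMP9, are made during maturation in the marrow and stored in granules, whereas ADAM17 sits in the membrane and releases the outer parts of surface proteins such as the precursor of TNF.

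Before the genes are described, the samples themselves need an account. The table holds log2 values, so 1 unit is a 2-fold difference. Arrays correlated across rows at 0.979 to 0.997 within PBS, 0.970 to 0.995 within SP and 0.857 to 0.948 between the groups. The mean of 8 neutrophil marker genes lay between 11.95 and 12.20 in the PBS samples and between 11.39 and 12.69 in the SP samples, so both groups held neutrophil RNA, although Ly6g itself had no matched row. Markers of airway and alveolar epithelium, endothelium, mesothelium and B cells were measured in both groups and were mostly lower in SP. All 5 of 5 ciliated cell markers, 4 of 4 club cell markers and 6 of 7 endothelial markers fell. In SP replicate 3 the neutrophil mean was the highest of the 8 samples, and the means of the macrophage, fibroblast, smooth muscle, endothelial and epithelial lists were the lowest. The neutrophil markers were split there. S100a8, S100a9, Camp, Ngp and Ltf were at their highest, Retnlg and Cxcr2 lay within the PBS range, and Csf3r (12.67) was at its lowest.

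**Figure D1:**
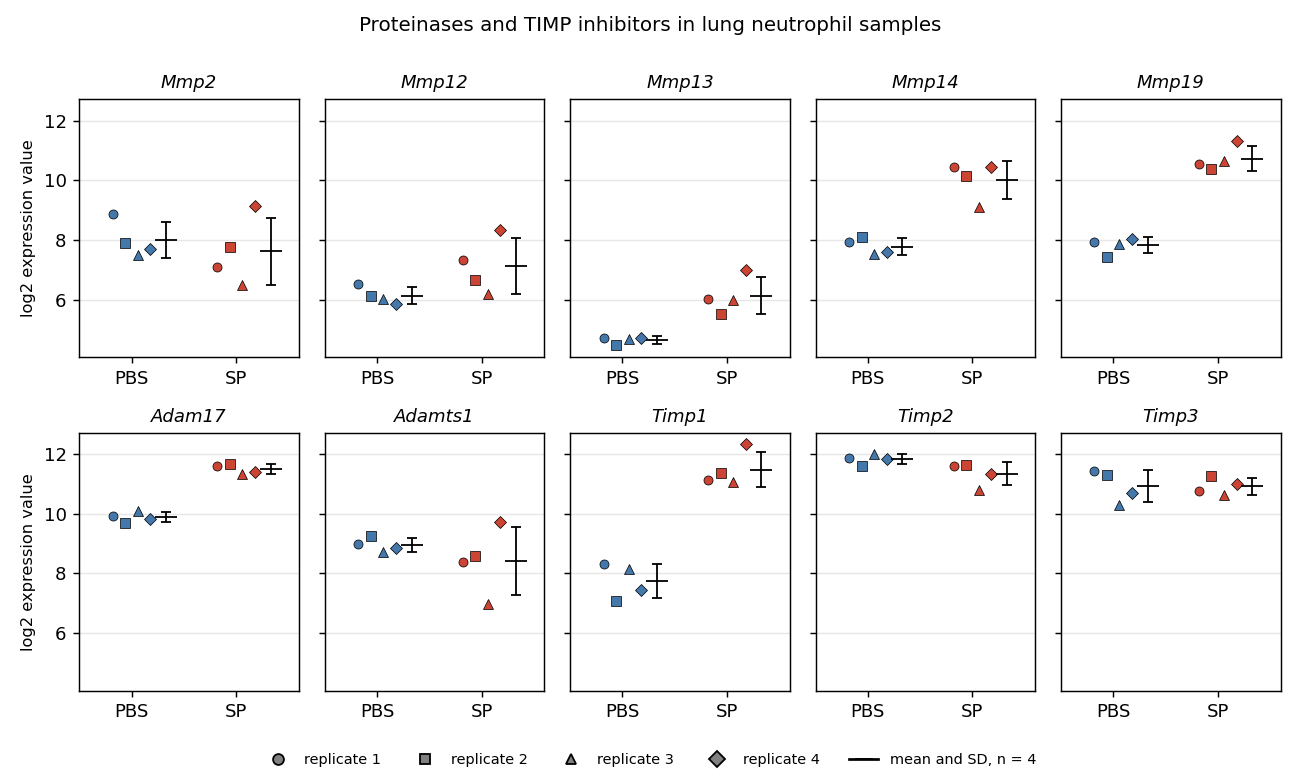
Log2 expression value (vertical axis) of each of the 10 genes in the 4 PBS samples (blue) and the 4 SP samples (red), with symbols for the replicate numbers and bars for the mean and SD. Timp1, Mmp19, Mmp14, Adam17 and Mmp13 lie higher in every SP sample than in any PBS sample, and the other 5 genes overlap between the groups.

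Timp1, Mmp19, Mmp14, Adam17 and Mmp13 rose in pneumonia, by 2.79-fold to 13.4-fold, and none of the 10 genes fell. Mmp12, Mmp2, Adamts1, Timp2 and Timp3 did not pass the threshold, an adjusted p of 0.05 from limma over all rows. Calls were frequent in this comparison, since 44.1% of all rows were called, 21.5% as higher and 22.6% as lower, so a count of 5 called genes among 10 is near the background. The share of rows with no overlap between the groups was 49.0%, beside 5 of these 10 genes. By size and direction, all 5 called genes were at least 2-fold higher, against 6.37% of all rows, and none was at least 2-fold lower, against 11.3%. The median difference of the 10 genes was 1.24 log2 units, beside 0.10 over all rows. Because the genes were chosen with results known, these figures describe them and are no test of the group.

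The direction of the background depends on the scaling. The SP arrays had lower medians than the PBS arrays, by 0.28 log2 units on average. Of the rows called at 2-fold or more, 36.1% were higher in SP as deposited, 46.1% after another quantile normalization and 55.6% when each array was centred on its median. Of all calls, 48.9% were higher as deposited and 77.9% after centring. The 5 genes that rose did so under each of these scalings.

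The bases just upstream of the annotated start are shown for 4 of the 5 genes that rose, so that the regions from which their transcripts begin can be read beside the values. The fifth, Mmp19, had no entry in the sequence table. Each run is the 250 bases before the start, 5′ to 3′ on the strand of the gene, from NCBI RefSeq on the mouse assembly GRCm38.p6. Timp1 lies at chrX:20869916-20870165 on the plus strand, Mmp13 at chr9:7272264-7272513 on the plus strand, Mmp14 at chr14:54431348-54431597 on the plus strand and Adam17 at chr12:21373633-21373882 on the minus strand. Capitals mark an AP-1 match.
Timp1: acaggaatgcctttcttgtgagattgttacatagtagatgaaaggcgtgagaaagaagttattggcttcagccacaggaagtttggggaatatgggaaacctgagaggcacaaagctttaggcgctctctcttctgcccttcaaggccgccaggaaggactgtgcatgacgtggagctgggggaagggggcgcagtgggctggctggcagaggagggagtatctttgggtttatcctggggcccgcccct
Mmp13: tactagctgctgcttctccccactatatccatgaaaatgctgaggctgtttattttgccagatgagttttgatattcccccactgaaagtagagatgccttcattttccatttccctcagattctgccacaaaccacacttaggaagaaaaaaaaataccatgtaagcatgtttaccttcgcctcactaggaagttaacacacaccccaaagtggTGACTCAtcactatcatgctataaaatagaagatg
Mmp14: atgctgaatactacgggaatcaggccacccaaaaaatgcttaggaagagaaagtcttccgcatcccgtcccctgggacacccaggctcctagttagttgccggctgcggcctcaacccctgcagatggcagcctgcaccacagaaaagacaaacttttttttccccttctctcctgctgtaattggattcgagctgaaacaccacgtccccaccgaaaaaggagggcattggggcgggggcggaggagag
Adam17: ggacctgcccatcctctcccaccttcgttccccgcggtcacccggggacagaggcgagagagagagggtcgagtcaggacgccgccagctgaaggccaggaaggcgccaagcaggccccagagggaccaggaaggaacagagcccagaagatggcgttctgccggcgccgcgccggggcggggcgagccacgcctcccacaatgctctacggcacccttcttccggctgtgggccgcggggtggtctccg

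These windows were searched on both strands for the AP-1 motif TGANTCA, the cyclic AMP response element TGACGTCA, the interferon-activated motif TTCNNNGAA, the NF-kappaB consensus and the TATA box TATAAA. Mmp13 held TGACTCA 35 to 29 bases before its start and a TATA box 16 to 11 bases before it. AP-1 matches occurred in 6.75% and TATA boxes in 12.4% of 32851 promoter windows of the same length. None of the 5 motifs was found in the windows of Timp1, Mmp14 and Adam17, nor in those of Timp2 and Timp3. Among the genes that were not called, Mmp12 had an NF-kappaB match 129 to 120 bases before one annotated start and the AP-1 letters TGAGTCA 44 to 38 bases before another, and Adamts1 had a TATA box 32 to 27 bases before its start. NF-kappaB matches occurred in 7.25% of all windows, the interferon-activated motif in 7.02% and the cyclic AMP response element in 1.55%, and no match in these genes overlapped another. A match describes letters only, and its absence says nothing of more distant sequence.

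Among the inhibitors, Timp1 rose and Timp2 and Timp3 did not pass the test. TIMP1 is a secreted inhibitor that binds many matrix metalloproteinases and forms a complex with the precursor of MMP9. Its row (NM_001044384) read 8.31, 7.09, 8.14 and 7.43 in PBS replicates 1 to 4 and 11.15, 11.37, 11.07 and 12.33 in SP replicates 1 to 4. Every SP sample stood more than 2 log2 units above the highest PBS sample, and SP replicate 4 stood apart upwards. The means were 7.74 ± 0.58 in PBS and 11.48 ± 0.58 in SP (SD, n = 4 each). The difference of 3.74 ± 0.35 log2 units (SE, 95% confidence interval 2.93 to 4.55) was 13.4-fold and passed limma's test with an adjusted p of 9.67e-05. In RNA of a bead-selected cell mixture, a change in the number of cells of a type and a change in RNA per cell cannot be told apart, here or for any gene below.

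TIMP2 inhibits metalloproteinases and also links MMP14 to the precursor of MMP2. Its row (NM_011594) read 11.86, 11.62, 12.02 and 11.86 in PBS and 11.62, 11.66, 10.80 and 11.35 in SP. SP replicates 1 and 2 lay within or beside the PBS values, and SP replicate 3 was the lowest sample. The difference was -0.49 ± 0.19 log2 units (95% confidence interval -0.92 to -0.05), which missed the threshold in limma after adjustment (adjusted p = 0.0682). It passed after another quantile normalization (-0.71, adjusted p = 0.0123) and with array weights (-0.33, adjusted p = 0.034).

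TIMP3 is held in the matrix and is the TIMP known to inhibit ADAM17. Its row (NM_011595) read 11.46, 11.31, 10.31 and 10.71 in PBS and 10.78, 11.28, 10.65 and 11.001 in SP. The groups overlapped throughout. The means were 10.94 ± 0.53 and 10.93 ± 0.28 (SD, n = 4 each), and the 95% confidence interval of the difference, -0.62 to 0.58 log2 units, leaves room for a change of either sign below 2-fold (limma, adjusted p = 0.958).

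Mmp14 rose while Mmp2, whose precursor its product activates at the cell surface, did not pass the test. MMP14 is a membrane-anchored collagenase. Its row (NM_008608) read 7.92, 8.09, 7.52 and 7.58 in PBS and 10.44, 10.14, 9.09 and 10.44 in SP. All SP samples were above all PBS samples, with SP replicate 3 nearest to them. The difference was 2.25 ± 0.30 log2 units (95% confidence interval 1.56 to 2.94), or 4.76-fold (limma, adjusted p = 0.000566).

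MMP2 is a gelatinase made mainly by fibroblasts and other stromal cells. Its row (NM_008610) read 8.87, 7.91, 7.50 and 7.71 in PBS and 7.11, 7.75, 6.48 and 9.13 in SP. The lowest and the highest of the 8 samples, replicates 3 and 4, were both SP. The difference was -0.38 ± 0.55 log2 units, with a 95% confidence interval of -1.64 to 0.88 that includes more than a 2-fold fall (limma, adjusted p = 0.565). It was -0.89 without SP replicate 4 (adjusted p = 0.101) and -0.004 without SP replicate 3.

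The remaining matrix metalloproteinases split in the same way, with Mmp19 and Mmp13 called and Mmp12 not. MMP19 is a secreted proteinase that cuts basement membrane proteins. Its row (NM_001164197) read 7.94, 7.44, 7.87 and 8.04 in PBS and 10.56, 10.38, 10.65 and 11.34 in SP. The groups were well separated and SP replicate 3 stood among the other SP samples. The difference of 2.91 ± 0.22 log2 units (95% confidence interval 2.41 to 3.41) was 7.52-fold (limma, adjusted p = 3.13e-05).

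MMP13 is a collagenase that cuts fibrillar collagen. Its row (NM_008607) read 4.72, 4.46, 4.67 and 4.72 in PBS and 6.02, 5.51, 5.97 and 6.98 in SP. All SP samples were above all PBS samples, with SP replicate 4 the highest. The PBS values lay within the range of the 3 Y-linked rows on these arrays, 4.33 to 4.90, which were dim on every array and are used here as a low-signal level. The difference of 1.48 ± 0.27 log2 units (95% confidence interval 0.85 to 2.11), or 2.79-fold, is therefore a fold above a background reading and not an exact one (limma, adjusted p = 0.00306).

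MMP12 is the elastase named for macrophages. Its row (NM_008605) read 6.52, 6.13, 6.03 and 5.85 in PBS and 7.33, 6.65, 6.20 and 8.33 in SP. SP replicates 1, 2 and 4 were above every PBS sample and SP replicate 3 was within their range. The difference was 0.999 ± 0.416 log2 units (95% confidence interval 0.05 to 1.95), or 2.00-fold, and missed the threshold (limma, adjusted p = 0.0801). Without SP replicate 3 it was 1.31 and passed (adjusted p = 0.025), and without SP replicate 4 it was 0.60 (adjusted p = 0.109). It also passed when the arrays were centred on their medians (1.28, adjusted p = 0.0124), after another quantile normalization (1.33, adjusted p = 0.0148) and with array weights (1.18, adjusted p = 0.0105).

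Adam17 rose with little spread between samples, and Adamts1 did not pass the test. ADAM17, the TNF-converting enzyme, also sheds L-selectin and both TNF receptors from neutrophils. Its row (NM_001277266) read 9.94, 9.71, 10.10 and 9.84 in PBS and 11.62, 11.68, 11.35 and 11.39 in SP. The lowest SP sample lay more than 1 log2 unit above the highest PBS sample. The SDs were 0.17 and 0.16, and the difference of 1.61 ± 0.11 log2 units (95% confidence interval 1.35 to 1.87) was 3.05-fold (limma, adjusted p = 2.52e-05).

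ADAMTS1 is a secreted proteinase that cuts the proteoglycans versican and aggrecan. Its row (NM_009621) read 8.98, 9.26, 8.73 and 8.86 in PBS and 8.39, 8.57, 6.97 and 9.74 in SP. As for Mmp2, SP replicate 3 was the lowest and SP replicate 4 the highest of all 8 samples. The difference was -0.54 ± 0.49 log2 units (95% confidence interval -1.67 to 0.59, limma, adjusted p = 0.372). It was -0.98 without SP replicate 4 (adjusted p = 0.0661) and -0.06 without SP replicate 3.

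**Figure D2:**
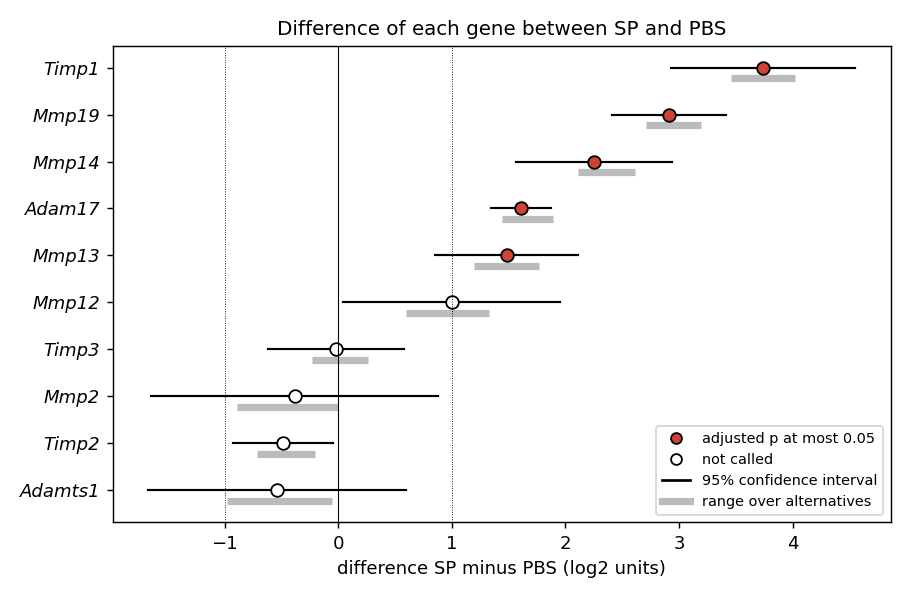
Difference between SP and PBS in log2 units (horizontal axis) for each of the 10 genes, with the 95% confidence interval as a line and the range over the alternatives as a grey bar, and dotted lines at 2-fold. The intervals of Timp1, Mmp19, Mmp14, Adam17 and Mmp13 lie above 0, and those of Timp3, Mmp2 and Adamts1 include it.

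The SP samples differed among themselves, and the members differed in how far they followed. Against the mean of the PBS samples, SP replicate 3 stood at 3.33 for Timp1, 2.83 for Mmp19, 1.45 for Adam17, 1.33 for Mmp13 and 1.32 log2 units for Mmp14, each above every PBS sample. It was nevertheless the lowest SP sample for Timp1, Mmp14 and Adam17. In the same sample Mmp12 stood at 0.07, Timp2 at -1.04, Mmp2 at -1.52 and Adamts1 at -1.99. SP replicate 4 was the highest SP sample for Timp1, Mmp19, Mmp13, Mmp12, Mmp2 and Adamts1. For Mmp14 it was highest by a narrow margin, at 2.665 beside 2.66 in SP replicate 1. The spread across the SP samples was therefore narrow for Adam17 and wide for Mmp2, Mmp12 and Adamts1.

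Markers of other cells moved across the same samples. The mean of 7 monocyte and interstitial macrophage markers lay between 7.71 and 8.61 in PBS and at 8.86, 8.80, 7.65 and 9.23 in SP replicates 1 to 4, and 3 of the 7 rose, Ccr2 and Adgre1 among them. The mean of 10 alveolar macrophage markers lay between 8.81 and 9.50 in PBS and between 7.75 and 8.32 in SP, with 6 falling and 1 rising. Macrophage markers were thus measured in all samples, and in SP replicate 3 the means of both lists lay below those of every PBS sample. The mean of 8 fibroblast markers lay between 7.25 and 7.89 in PBS and at 6.45, 6.64, 6.28 and 7.42 in SP, with 3 of 8 falling, and that of 7 smooth muscle and pericyte markers lay between 6.76 and 7.63 in PBS and at 6.15, 6.52, 5.76 and 7.08 in SP, with 3 of 7 falling. In these lists too, SP replicate 3 was the lowest and SP replicate 4 the highest SP sample. No gene of these lists was at the level of the Y-linked rows in all samples, but some were dim. Leaving out dim rows kept 7 of 10 alveolar macrophage, 5 of 8 fibroblast and 5 of 7 smooth muscle and pericyte markers. All 7 monocyte and interstitial macrophage markers were kept. The part of these cells in the differences of the 10 genes was not tested.

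**Figure D3:**
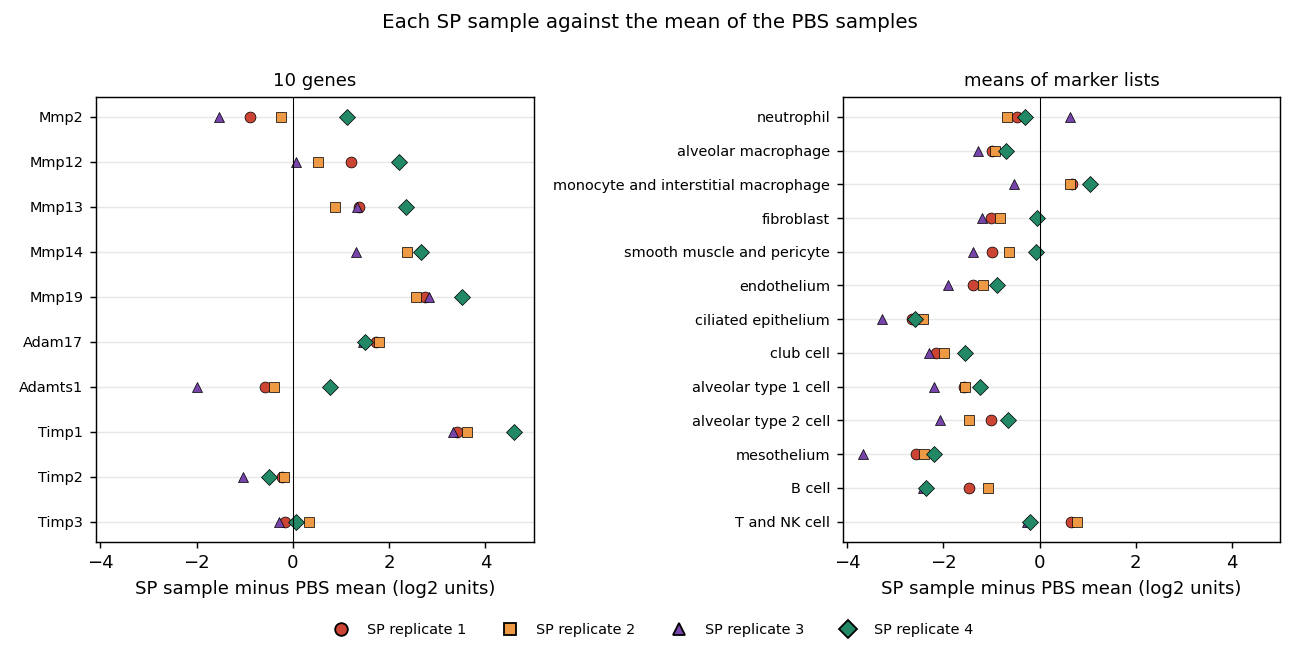
Each SP sample minus the mean of the PBS samples in log2 units (horizontal axes), for the 10 genes (left) and for the means of the marker lists (right), with a symbol for each SP replicate. In SP replicate 3 (triangles) Timp1, Mmp19, Mmp14, Adam17 and Mmp13 lie at 1.32 or more, while Mmp2, Adamts1 and the fibroblast and smooth muscle lists are lowest.

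In the wider proteinase family the balance of rises and falls depended on the scaling. Of 42 other measured MMP, ADAM and ADAMTS genes, 6 rose and 12 fell as deposited, beside 21.5% and 22.6% of all rows, 3 and 7 of them by at least 2-fold. Among 16 other matrix metalloproteinases only Mmp3, a stromelysin, rose (1.45 log2 units, 2.73-fold, limma, adjusted p = 0.0376), and this call was lost in the methods' t-test (adjusted p = 0.0787) and with the replicate number as a block (adjusted p = 0.0642), and in 6 of the 8 fits that left out 1 sample. Mmp15, a membrane-type enzyme like MMP14, fell from 10.51 ± 0.35 to 7.54 ± 0.56 (SD, n = 4 each), which is 7.80-fold (adjusted p = 0.000111). Mmp23 fell by 1.56 log2 units, and the other 4 that fell, Mmp8, Mmp9, Mmp11 and Mmp28, changed by less than 2-fold. After centring of the arrays, 9 of the 16 were called higher and 4 lower, beside 14219 and 4036 of all 24625 rows. The 16 included genes near the low-signal level in both groups, and leaving out dim rows kept 6 of the 16. Of those 6, 1 was called higher and 4 lower, beside 2971 and 4453 of the 12313 rows kept.

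The known granule proteinases of neutrophils had lower means in SP, with calls that depended on the processing. Mmp8, the neutrophil collagenase, read 13.32 ± 0.11 in PBS and 12.56 ± 0.58 in SP (SD, n = 4 each), with overlap between the groups, a difference of -0.76 (limma, adjusted p = 0.0426) that was not called after centring (adjusted p = 0.125) or in the methods' t-test (adjusted p = 0.0822). It was -1.07 with array weights and -1.02 without SP replicate 3. Mmp9, a gelatinase, read 12.86 ± 0.12 and 12.27 ± 0.36, with every SP sample below the PBS samples, a difference of -0.59 (adjusted p = 0.0238) that was not called after centring either (adjusted p = 0.167). For Mmp25, a membrane-type enzyme of neutrophils, the difference of -0.68 missed the threshold (adjusted p = 0.107). It was called with the replicate block (adjusted p = 0.0183), with array weights (-1.07, adjusted p = 0.00196) and under another quantile normalization (adjusted p = 0.0393). It was also called without SP replicate 3 (adjusted p = 0.00869), the sample in which all 3 genes were highest among the SP samples.

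Of 9 other ADAM genes, none rose and 4 fell, beside 21.5% and 22.6% of all rows. The 4 were Adam28 (-2.19, 4.57-fold), Adamdec1 (-1.17), Adam33 (-1.02) and Adam15 (-0.98 log2 units). Adam10, the sheddase closest to ADAM17 in structure, differed by 0.01 log2 units, with a 95% confidence interval of -0.31 to 0.34 (limma, adjusted p = 0.942). Of 17 other ADAMTS genes 5 rose and 2 fell, beside 21.5% and 22.6% of all rows. Adamts4, an aggrecanase, rose by 2.43 ± 0.37 log2 units (SE, 5.39-fold, adjusted p = 0.00108) and Adamts6 by 1.21, whereas Adamts5, the other main aggrecanase, fell by 1.65 and Adamts10 by 1.43. The PBS values of Adamts4 lay beside the low-signal level, so its fold is not exact. After centring, 2 ADAM genes were called higher and 4 lower, and 12 ADAMTS genes higher and 2 lower. Of all 24625 rows, 14219 were then called higher and 4036 lower. Many of the 17 ADAMTS genes read near the low-signal level. Leaving out dim rows kept 6 of them, 3 called higher and 2 lower, beside 2971 and 4453 of the 12313 rows kept.

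**Figure D4:**
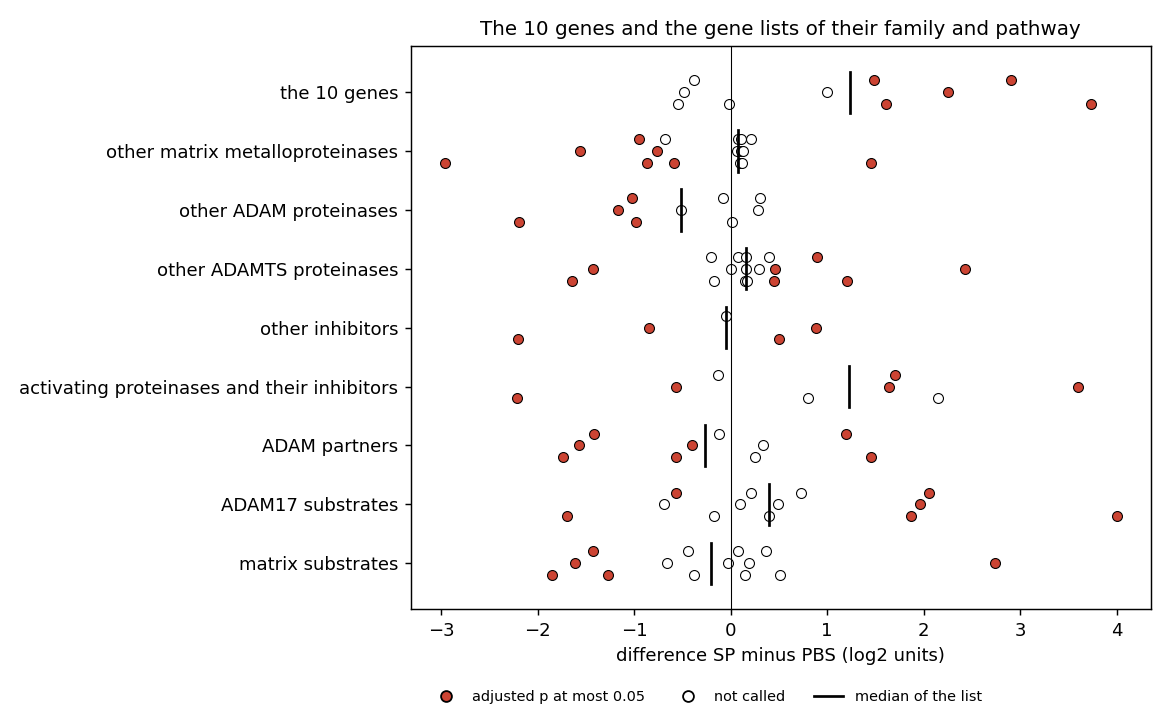
Difference between SP and PBS in log2 units (horizontal axis) of the 10 genes and of each gene in 8 lists of their family and pathway, filled where the adjusted p was at most 0.05, with a bar at the median of each list. The median is 1.24 for the 10 genes, 0.08 for the other matrix metalloproteinases and -0.51 for the other ADAM proteinases.

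Among 5 other inhibitors, Reck and Timp4 fell and A2m and Tfpi2 rose, while 22.6% of all rows fell and 21.5% rose. The PBS values of A2m and Tfpi2 lay within or beside the low-signal level, so their folds are not given, and leaving out dim rows kept only Reck of the 5. RECK is a membrane-anchored inhibitor of several matrix metalloproteinases, MMP14 among them. It fell from 9.46 ± 0.18 to 7.25 ± 0.47 (SD, n = 4 each), by 2.21 ± 0.22 log2 units (SE) or 4.62-fold (limma, adjusted p = 0.000126), with all SP samples below all PBS samples. Timp1 and Reck thus changed in opposite directions within the inhibitors.

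Of 8 proteinases and inhibitors that act on the precursors, 3 rose and 2 fell, beside 21.5% and 22.6% of all rows. Plau, the urokinase that generates plasmin, rose from 6.93 ± 0.08 to 10.52 ± 0.85 (SD, n = 4 each), by 3.60 ± 0.37 log2 units (SE) or 12.1-fold (limma, adjusted p = 0.00014). Furin, which cleaves the propeptides of MMP14 and ADAM17, rose from 10.58 ± 0.37 to 12.23 ± 0.24, or 3.13-fold (adjusted p = 0.00032). Pcsk6, a related convertase, fell 4.65-fold (adjusted p = 3.71e-06), and Bsg, which is known to induce matrix metalloproteinases, fell by less than 2-fold.

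Partner genes of ADAM17 and ADAM10 changed in both directions. The inactive rhomboid proteins iRhom1 and iRhom2, encoded by Rhbdf1 and Rhbdf2, carry ADAM17 to the cell surface, and iRhom2 is the form known for immune cells. Rhbdf2 read 10.07 ± 0.41 in PBS and 11.52 ± 0.11 in SP (SD, n = 4 each), a rise of 1.46 ± 0.19 log2 units (SE) or 2.75-fold (limma, adjusted p = 0.000493) with no overlap. Rhbdf1 fell 2.66-fold (adjusted p = 0.00778). Pacs2, a sorting protein for ADAM17, rose 2.30-fold (adjusted p = 0.0216), a call that the methods' t-test lost (adjusted p = 0.0528). The tetraspanins Tspan15 and Tspan17, partners of ADAM10, fell 3.34-fold and 2.96-fold. In all, 2 of 10 partner genes rose and 5 fell, beside 21.5% and 22.6% of all rows, and 3 of the 5 that fell were the tetraspanins Tspan15, Tspan17 and Tspan33.

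Of 13 measured transcripts of proteins that ADAM17 sheds, 4 rose, namely Tnf, Tnfrsf1b, Icam1 and Ereg, and 2 fell, Areg and Tgfa, beside 21.5% and 22.6% of all rows. Tnf, the cytokine for which the enzyme was named, rose 16.0-fold (4.00 ± 0.43 log2 units, limma, adjusted p = 0.000183). Tnfrsf1b, a receptor for TNF, rose 4.15-fold (adjusted p = 0.000909) and Icam1, an adhesion molecule, 3.90-fold (adjusted p = 1.53e-05). Areg, a growth factor, fell 3.23-fold (adjusted p = 0.00145). The other 7 were not called. These arrays measured no protein and no shedding. By flow cytometry, the study reports more intracellular TNF and more surface ICAM-1 in lung neutrophils of SP mice.

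**Figure D5:**
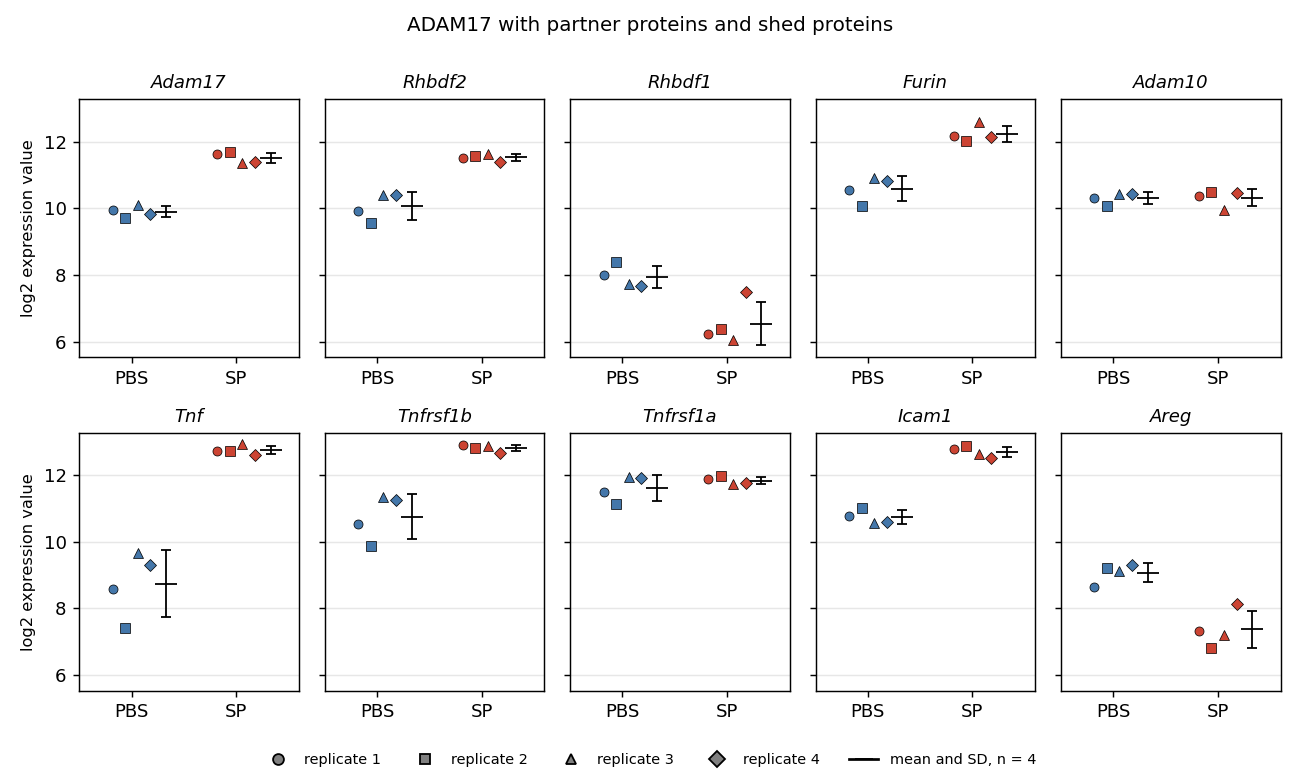
Log2 expression value (vertical axis) of Adam17, 4 genes of its partners and relatives and 5 genes of shed proteins in the 4 PBS samples (blue) and 4 SP samples (red), with the mean and SD; the 10 genes were picked after their values were seen. Adam17, Rhbdf2, Furin, Tnf, Tnfrsf1b and Icam1 are higher in every SP sample, Rhbdf1 and Areg are lower, and Adam10 and Tnfrsf1a overlap between the groups.

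Of 14 matrix proteins that these enzymes cut, 1 rose and 4 fell, beside 21.5% and 22.6% of all rows. Vcan, the proteoglycan versican that ADAMTS1 and ADAMTS4 cut, rose by 2.74 ± 0.24 log2 units (SE, 6.68-fold, limma, adjusted p = 6.52e-05). Dcn, which encodes decorin, fell 3.60-fold (adjusted p = 0.00194), Lama5, a laminin chain of basement membranes, 3.05-fold (adjusted p = 0.00246) and Eln, elastin, 2.68-fold (adjusted p = 0.0202). Bgn, which encodes biglycan, was the other gene that fell. The elastin call was lost in the methods' t-test (adjusted p = 0.051). Over all 8 lists 18 of 92 measured genes rose and 27 fell, beside 21.5% and 22.6% of all rows. After centring 44 of the 92 were called higher and 22 lower, beside 14219 and 4036 of all 24625 rows. The median over the 92 genes was 0.08 log2 units, beside 0.10 over all rows.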

How the data were processed

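Messenger RNA of 8 samples, 4 PBS and 4 SP, was measured on 1 array each, and groups and replicate numbers followed the sample titles. The deposited log2 values were made by the authors with robust multi-array averaging. Signals were corrected for background, GC content and sequence of the probes, normalized by quantiles and summarised by median polish over custom probe-to-gene mappings. The genome build behind the mappings is not given in the sources used here. Quantile normalization makes values relative within an array, so a change in total RNA cannot be read from them.

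Row identifiers were matched without versions to RefSeq genes of GRCm38.p6, which named 19915 of 24625 rows (80.9%). The members and gene lists were chosen with earlier results of these data known. List genes without a matched row (Mmp21, Mmp27, Adamts2, Plaur, Cx3cl1 and Vcam1) were not analysed here. SP was set against PBS in every row by limma's lmFit and eBayes (limma 3.58.1 in R 4.3.3). No covariate was used, tests were two-sided, and p-values were adjusted by Benjamini-Hochberg across the whole table. A row was called at an adjusted p of at most 0.05, and 2-fold is 1 log2 unit. The procedure was first tested on simulated data.

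Genes named were the 10 members, of each list the called genes of at least 2-fold (up to 3 in each direction), and Mmp8, Mmp9, Mmp25, Adam10, Rhbdf2 and Reck. Adam15, Mmp11, Mmp28, Timp4, A2m, Tfpi2, Bsg, Ereg, Tgfa, Bgn, Tspan33, Tnfrsf1a, Ccr2 and Adgre1 were named after their values were seen. Some genes of the lists are counted but their own results are not reported here. Alternatives were the methods' t-test, a robust prior with an intensity trend, array weights, the replicate number as a block, median-centred arrays, another quantile normalization, leaving out dim rows, and leaving out each sample in turn. Figures were drawn with matplotlib 3.10.9 in Python 3.11.15.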

Additional observations from a re-analysis of the deposited data

Results flagged for a closer look

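A single sample far from the others of its group was looked for in 84 groups of 4 samples, over 42 genes, and found in 2, while chance alone flags about 1 in 20 groups. For Plau, PBS replicate 3 read 6.805 log2 units, below the other PBS samples (Dixon ratio 0.898), and all SP samples remained above all PBS samples. For Tspan17, SP replicate 4 read 6.799, above the other SP samples (Dixon ratio 0.834). SP replicate 4 was also the highest SP sample for the fibroblast and smooth muscle marker lists.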

How the results depend on the processing

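Under 15 alternatives, Timp1 (3.46 to 4.02 log2 units), Mmp19 (2.71 to 3.19), Mmp14 (2.11 to 2.61) and Adam17 (1.44 to 1.89) stayed called as higher. Mmp13 did so in the 14 that tested it (1.195 to 1.76), since leaving out dim rows removed it, as it did Mmp23. Mmp12 passed the threshold with array weights (1.18), after centring (1.28) and under another quantile normalization (1.326), and ran from 0.597 to 1.309 with 1 sample left out, passing only without SP replicate 3. Timp2 passed after another quantile normalization (-0.714) and with array weights (-0.334). The difference of Timp3 changed sign with array weights (0.127) and after centring (0.263), and ran from -0.231 to 0.153 with 1 sample left out. That of Adam10 changed sign after another quantile normalization (-0.12) and ran from -0.064 to 0.138 with 1 sample left out. None of these sign changes was called, and their cause was not tested. The number of members called was 4 to 7, and that of list genes 35 to 66, against 45. The calls over the whole table moved as well. The 35 came without PBS replicate 1, where 8200 of 24625 rows were called. The 66 came after centring, where 18255 were called. The 4 members came with dim rows left out, where 7424 of 12313 rows were called. Mmp2 and Adamts1 were never called. With 1 sample left out, calls were lost for Mmp3 (all but SP replicates 3 and 4), Mmp8 (all but SP replicate 3), Mmp9 (PBS replicates 3 and 4, SP replicates 1 and 2), Eln (PBS replicate 1, SP replicates 1 and 2) and Pacs2 (PBS replicate 1, SP replicate 1). With the replicate block 5 members were called, as without it, and 9842 rows instead of 10860. Deviations of same-numbered samples correlated at 0.02, 0.03, 0.35 and -0.27. No source used here says that the numbers pair samples, and so few correlations cannot decide whether they do. Values near the Y-linked level, 4.33 to 4.90, limit folds of dim genes.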
